A study of Mus musculus with 4 samples.

Results

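The genes described are 48 that encode proteins of the presynaptic terminal. They were chosen by name for their known role in synaptic vesicles, the active zone, vesicle recycling or presynaptic adhesion. No measured value entered the rule, though earlier results of these data were known. All 48 were among the 22609 gene symbols counted in each library, and all 48 passed the filter on low counts, with 360 counts for Doc2a to 97014 counts for Snap25 in single libraries. The libraries came from the hippocampus of ovariectomized female mice of 2 genotypes, FLOX and FBN-ARO-KO, each after global cerebral ischemia (GCI), and the comparison asked what the loss of neuronal aromatase changed in the injured hippocampus. FBN-ARO-KO mice carried a Cre/LoxP deletion of Cyp19a1, the aromatase gene that makes estradiol from androgens, with Cre driven by the CaMKIIα promoter and so restricted to excitatory neurons of the forebrain. FLOX mice served as the control genotype. Both groups shared the loss of the ovaries 1 week before surgery, an age of 3 to 5 months, 20 min of occlusion of both common carotid arteries and 24 h of reperfusion. Sham-operated animals were not analysed here, so no value below compares injured with uninjured tissue. Each group, FLOX+GCI and FBN-ARO-KO+GCI, had 2 libraries, numbered 1 and 2. The sources do not say whether the 2 libraries of a group were separate mice, and the design text speaks of samples run in duplicate. The p-values therefore measure only the spread between these libraries, which may be technical. Counts of the 2 libraries differed by a chi-square per degree of freedom of 10.8 in FLOX+GCI and 12.8 in FBN-ARO-KO+GCI, where sampling of reads alone gives about 1. The source of this spread was not tested.

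A presynaptic terminal loads transmitter into vesicles, holds a reserve of them on synapsins, and docks others at the active zone, a scaffold facing the cleft. Priming factors ready a docked vesicle, the SNARE proteins of vesicle and plasma membrane zip together, and calcium binding to a synaptotagmin or a related sensor triggers fusion. The membrane is then taken back by endocytosis and the SNARE complex is pulled apart for reuse. In the hippocampus most of these terminals release glutamate, and many of the families hold paralogs with different affinities, speeds or cell types.

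Each library held 24333396 to 33076795 counts on genes, and the 3 counts taken as the lowest level that could be told from none corresponded to 0.0907 to 0.123 CPM (counts scaled to a common library total). Markers of hippocampal principal neurons were present in every library, with Prox1 of dentate granule cells at 50.5 to 61.9 CPM and Neurod6 of pyramidal neurons at 265 to 312 CPM. The targeted gene, Cyp19a1, had 1 to 4 counts in each of the 4 libraries (4, 1, 2 and 2, FLOX+GCI first), which does not allow a check of the genotype. FLOX+GCI replicate 2 stood apart in Gfap, the astrocyte filament, at 900.3 CPM against 396 to 560.2 CPM in the other libraries, and in Timp1, with 203 counts against 4 to 5. Over the 14527 genes tested with edgeR's quasi-likelihood test, 2 passed a Benjamini-Hochberg adjusted p of 0.05, both lower in FBN-ARO-KO+GCI. Because the tissue was measured in bulk, fewer cells of a type and less RNA per cell cannot be told apart.

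As a group, the presynaptic genes were close to level between the genotypes. Their summed level was 28358 and 27502 CPM in FLOX+GCI and 28013 and 29474 CPM in FBN-ARO-KO+GCI, so that one FBN-ARO-KO+GCI library lay above and the other between the FLOX+GCI libraries. The summed level of 19 pan-neuronal markers, led by Camk2a and Ndrg4, was 15558 and 16053 CPM in FLOX+GCI and 15579 and 15713 CPM in FBN-ARO-KO+GCI. The median log2 fold change of the 48 genes, FBN-ARO-KO+GCI over FLOX+GCI, was -0.011, against -0.0074 over all genes tested. A log2 fold change within ±0.25 was found for 40 of the 48 (83.3%), against 70.9% of all genes. The 48 genes were also more abundant, at a median of 366 CPM against 23.6 CPM over all genes tested. The part of abundance in this share and in those below was not tested. None of the 48 passed the adjusted p of edgeR's quasi-likelihood test, where 0.0138% of all genes did, and the smallest adjusted p among them was 0.238. DESeq2 gave an adjusted p to 44 of the 48, all but the 4 genes of lowest count (Doc2a, Syt2, Unc13c and Slc17a6), and called 2, Syt4 higher and Nrxn2 lower, where it called 5.1% of the 5728 genes it gave an adjusted p. The likelihood ratio test of edgeR called Doc2a lower, where it called 2.02% of all genes.

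At an unadjusted p under 0.05 were 13 of the 48 genes (27.1%), where 16.5% of all genes were. Of these, 7 were higher in FBN-ARO-KO+GCI (8.72% of all genes were) and 6 were lower (7.82% of all genes were). The higher ones were Syt4, Cadps2, Doc2b, Rab3c, Ppfia2, Erc2 and Snap25, and the lower ones were Slc17a6, Doc2a, Nrxn2, Sncb, Ppfia3 and Stx1a. After a correction for transcript GC content and length, described further on, 5 were higher and 2 lower. The count of 13 fell to 4 without FLOX+GCI replicate 2, where 12.9% of all genes had such a p, and to 6 without FBN-ARO-KO+GCI replicate 2, where 5.64% had. The 2 groups did not overlap in 32 of the 48 genes, with both FBN-ARO-KO+GCI libraries above in 15 and below in 17. Of all genes 51.8% did not overlap, 25.9% with FBN-ARO-KO+GCI above and 25.8% below. With GC content and length corrected, they did not overlap in 27, with FBN-ARO-KO+GCI above in 20 and below in 7, against 44.3% of all genes, 28.3% above and 16% below. With 2 libraries against 2, the smallest p that an exact permutation test allows for 1 gene is 0.333.

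**Figure D1:**
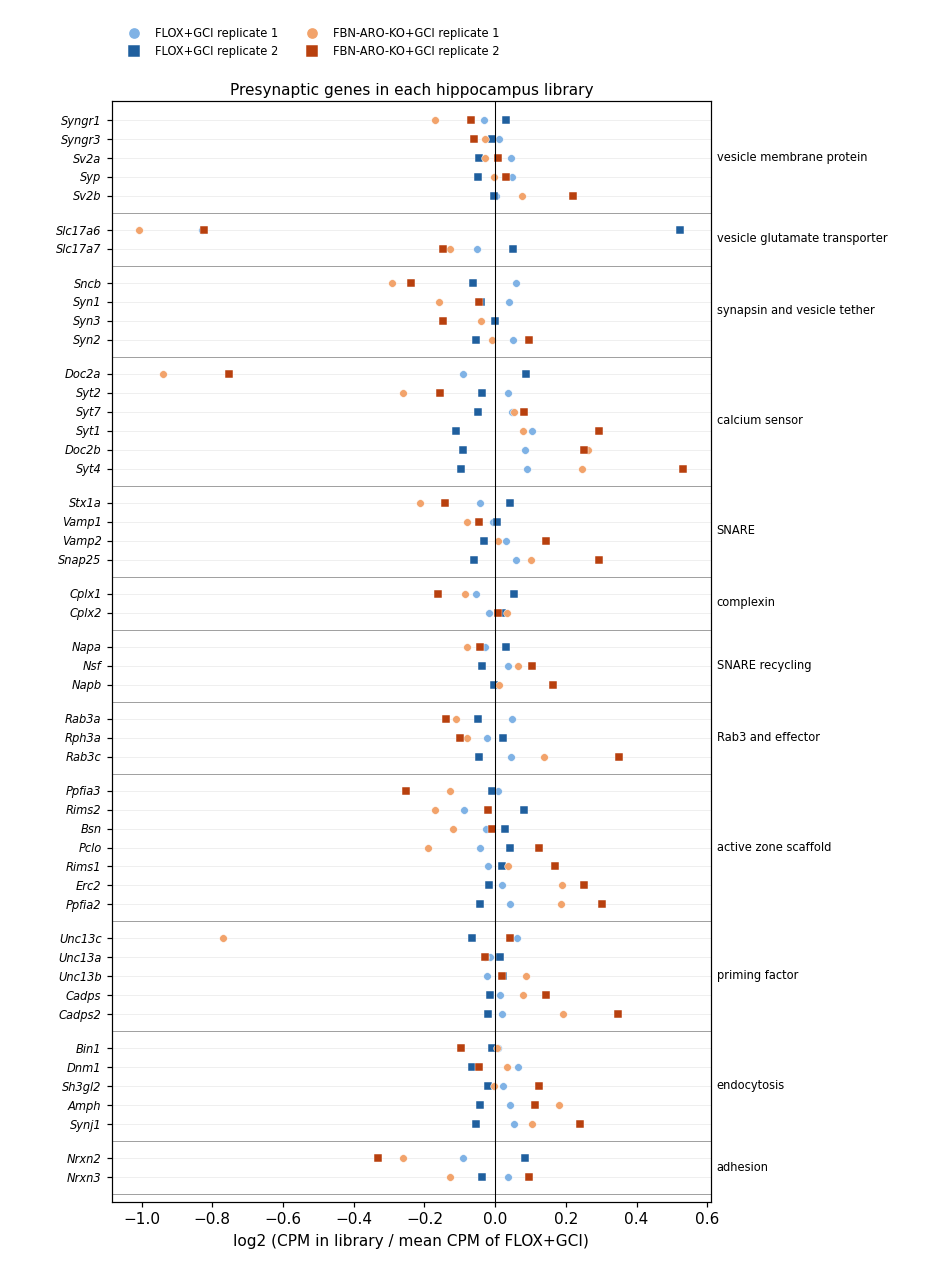
Level of each of the 48 presynaptic genes in each library, as log2 of CPM over the mean CPM of FLOX+GCI on the horizontal axis, with genes grouped by role on the vertical axis (circles, replicate 1; squares, replicate 2; blue, FLOX+GCI; orange and brown, FBN-ARO-KO+GCI). Most genes sit within ±0.25 of the FLOX+GCI mean, Doc2a has both FBN-ARO-KO+GCI libraries far below, and in Slc17a6 FLOX+GCI replicate 2 stands alone while FLOX+GCI replicate 1 lies hidden behind FBN-ARO-KO+GCI replicate 2.

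Values in single libraries are CPM scaled by TMM, the trimmed mean of M values that edgeR uses to set library sizes, with replicate 1 before replicate 2, and each log2 fold change comes with a standard error derived from edgeR's F statistic. The 5 genes grouped here as vesicle membrane proteins, Syp, Sv2a, Sv2b, Syngr1 and Syngr3, had log2 fold changes between -0.12 and 0.15. Transporters and synaptotagmins of that membrane are described below. Syp encodes synaptophysin, a widely used marker protein of synaptic vesicles, and was at 1882 and 1763 CPM in FLOX+GCI and 1819 and 1861 CPM in FBN-ARO-KO+GCI, which gave a log2 fold change of 0.014 ± 0.067. Sv2a encodes the vesicle glycoprotein bound by the antiepileptic levetiracetam, and stood at 513 and 481 CPM in FLOX+GCI and 487 and 499.8 CPM in FBN-ARO-KO+GCI, which gave a log2 fold change of -0.010 ± 0.070. In both genes the groups overlapped. Its paralog Sv2b was at 742 and 739.8 CPM in FLOX+GCI and 781 and 863 CPM in FBN-ARO-KO+GCI, with both FBN-ARO-KO+GCI libraries above (log2 fold change 0.15 ± 0.074). The synaptogyrins are tetraspan relatives of synaptophysin, and both were a little lower in FBN-ARO-KO+GCI. Syngr1 was at 685 and 715 CPM in FLOX+GCI and 622 and 667 CPM in FBN-ARO-KO+GCI (log2 fold change -0.12 ± 0.071). Syngr3 was at 205 and 202 CPM in FLOX+GCI and 199.7 and 196 CPM in FBN-ARO-KO+GCI (log2 fold change -0.044 ± 0.067).

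The vesicular glutamate transporters fill vesicles, Slc17a7 (VGLUT1) mainly in cortical and hippocampal neurons and Slc17a6 (VGLUT2) mainly in thalamic and other subcortical neurons. Slc17a7 was at 1727 and 1851 CPM in FLOX+GCI and 1638 and 1615 CPM in FBN-ARO-KO+GCI, lower in both FBN-ARO-KO+GCI libraries by a small margin (log2 fold change -0.14 ± 0.068, unadjusted p = 0.0809 in edgeR's test). Corrected for GC content and length, the log2 fold change of Slc17a7 took the other sign, at 0.074. Slc17a6 was at 25.2 and 64.3 CPM in FLOX+GCI and 22.3 and 25.3 CPM in FBN-ARO-KO+GCI. A single library was high, FLOX+GCI replicate 2, and FLOX+GCI replicate 1 lay within the range of FBN-ARO-KO+GCI. The Slc17a6 log2 fold change of -0.91 ± 0.37 had the largest standard error of the 48 genes, and it was -0.088 without FLOX+GCI replicate 2 and -1.43 without FLOX+GCI replicate 1, where edgeR's adjusted p was 3.35e-05. The Slc17a6 difference therefore rested on FLOX+GCI replicate 2, the library that was also high in Gfap and Timp1. Thalamus and habenula border the hippocampus and express Slc17a6. Markers of these regions summed over 15 genes to 105 and 94.9 CPM in FLOX+GCI and to 107 and 108 CPM in FBN-ARO-KO+GCI. Of these markers, Gbx2, Shox2, Pou4f1 and Irx2 had 0 to 3 counts in every library. Of the 15, 10 passed the filter on low counts, at a median level of 5.67 CPM and led by Plekhg1 and Prkcd. In 6 of the 10 there was a positive log2 fold change. The 4 with a negative one were Zic1, Lef1, Slitrk6 and Ramp3. Zic1 was at 9.26 and 5.31 CPM in FLOX+GCI and 4.95 and 2.42 CPM in FBN-ARO-KO+GCI (log2 fold change -0.98 ± 0.37), highest in FLOX+GCI replicate 1. Slitrk6 was highest in FLOX+GCI replicate 2, at 0.798 and 1.74 CPM in FLOX+GCI and 0.996 and 1.02 CPM in FBN-ARO-KO+GCI (log2 fold change -0.33 ± 0.42). The part of Gfap-expressing cells and of neighbouring thalamic tissue in the Slc17a6 difference was not tested.

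Synapsins coat vesicles and hold them in the reserve pool. Syn1 was at 648 and 614 CPM in FLOX+GCI and 565 and 612 CPM in FBN-ARO-KO+GCI, lower in FBN-ARO-KO+GCI (log2 fold change -0.10 ± 0.074), and the groups were separated by a very small gap. With GC content and length corrected, the log2 fold change of Syn1 was 0.091. Syn2 was at 1031 and 959.6 CPM in FLOX+GCI and 989 and 1064 CPM in FBN-ARO-KO+GCI, with the groups overlapping (log2 fold change 0.044 ± 0.074). Syn3, the least abundant synapsin, was at 42.7 and 42.7 CPM in FLOX+GCI and 41.5 and 38.5 CPM in FBN-ARO-KO+GCI (log2 fold change -0.092 ± 0.088), the lowest value being FBN-ARO-KO+GCI replicate 2. Each synapsin gene contains a Timp gene on its opposite strand, and whether the counting used strand is not given in the sources used here. Timp1, inside Syn1, had 5, 203, 5 and 4 counts over the libraries in the same order. Sncb encodes β-synuclein, a vesicle-associated relative of α-synuclein, and was at 381 and 350.1 CPM in FLOX+GCI and 299 and 309.9 CPM in FBN-ARO-KO+GCI. Both FBN-ARO-KO+GCI libraries were below both FLOX+GCI libraries, with a log2 fold change of -0.26 ± 0.074 and an unadjusted p of 0.0085 (adjusted p = 0.238 in edgeR's test). Corrected for GC content and length, the log2 fold change of Sncb was 0.050.

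Among the calcium sensors were Syt4, with the largest positive log2 fold change of the 48 genes, and Doc2a, with the most negative after Slc17a6. Doc2a and Doc2b encode soluble proteins with a pair of C2 domains that bind calcium at low concentrations and act in spontaneous and asynchronous release. Doc2a was at 19.6 and 22.1 CPM in FLOX+GCI and 10.9 and 12.4 CPM in FBN-ARO-KO+GCI, so both FBN-ARO-KO+GCI libraries were well below both FLOX+GCI libraries. The log2 fold change of Doc2a was -0.84 ± 0.13, a difference of -44.3%, with the smallest unadjusted p of the set (0.000294) and an adjusted p of 0.238 in edgeR's quasi-likelihood test. Its adjusted p was 0.000245 in edgeR's likelihood ratio test and 0.00622 with the replicate number as a block, which called 1.27% of all genes. It was 0.0122 without FLOX+GCI replicate 1 and 0.0459 without FLOX+GCI replicate 2, fits that called 1.3% and 0.854% of all genes. Without FBN-ARO-KO+GCI replicate 1 or 2 it was 0.163 or 0.771, and Doc2a, at an unadjusted p of 8.79e-06 in DESeq2, was not among the 5728 genes given an adjusted p by it. The log2 fold change over the same 4 omissions ran from -0.94 to -0.76, and it was -0.59 after correction for GC content and length (unadjusted p = 0.00582). The annotated span of Doc2a overlaps that of Ino80e on the opposite strand by 1126 bases, and Ino80e, which encodes a subunit of a chromatin remodeler, was at 30.2 and 34.5 CPM in FLOX+GCI and 28.1 and 28.6 CPM in FBN-ARO-KO+GCI. Doc2b, the more abundant paralog, was at 145 and 128 CPM in FLOX+GCI and 164 and 162 CPM in FBN-ARO-KO+GCI, with both FBN-ARO-KO+GCI libraries above both FLOX+GCI libraries. Its log2 fold change was 0.26 ± 0.082 (unadjusted p = 0.015, adjusted p = 0.248 in edgeR's test) and 0.36 after the correction (unadjusted p = 0.00237).

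Syt4, an atypical synaptotagmin found also on dense-core vesicles, was at 198 and 174 CPM in FLOX+GCI and 220.4 and 269 CPM in FBN-ARO-KO+GCI. Both FBN-ARO-KO+GCI libraries were higher, with replicate 2 the highest, at a log2 fold change of 0.40 ± 0.11 (unadjusted p = 0.00889, adjusted p = 0.238 in edgeR's test). DESeq2 gave Syt4 an adjusted p of 0.0184, and the log2 fold change was 0.21 once GC content and length were corrected for. Syt1, the main fast sensor of glutamate release in the forebrain, was at 1533 and 1322 CPM in FLOX+GCI and 1509 and 1751 CPM in FBN-ARO-KO+GCI, with overlapping groups (log2 fold change 0.19 ± 0.10). Its relative Syt2 serves as the fast sensor mainly in hindbrain neurons and some interneurons, and was at 21.2 and 20.1 CPM in FLOX+GCI and 17.2 and 18.5 CPM in FBN-ARO-KO+GCI, lower in FBN-ARO-KO+GCI (log2 fold change -0.21 ± 0.11). Syt7, a slow high-affinity sensor, was at 394 and 368 CPM in FLOX+GCI and 395 and 403 CPM in FBN-ARO-KO+GCI, where the FBN-ARO-KO+GCI libraries exceeded the higher FLOX+GCI library by a very small margin (log2 fold change 0.067 ± 0.070).

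The SNARE genes ran in different directions. Snap25, the plasma membrane SNARE with the most counts of the set, was at 2812 and 2587 CPM in FLOX+GCI and 2894 and 3312 CPM in FBN-ARO-KO+GCI, higher in both FBN-ARO-KO+GCI libraries (log2 fold change 0.20 ± 0.085, unadjusted p = 0.0492). Stx1a, its partner on the plasma membrane, was at 129 and 137 CPM in FLOX+GCI and 115 and 120.4 CPM in FBN-ARO-KO+GCI, lower in both (log2 fold change -0.18 ± 0.074, unadjusted p = 0.0481). After the correction, the log2 fold change was 0.11 for Snap25 and 0.034 for Stx1a. Vamp2, the main vesicle SNARE of the forebrain, was at 1351 and 1294 CPM in FLOX+GCI and 1331 and 1461 CPM in FBN-ARO-KO+GCI, with overlapping groups (log2 fold change 0.078 ± 0.074). Vamp1, used more in spinal cord and brainstem, was at 182 and 184 CPM in FLOX+GCI and 173 and 177 CPM in FBN-ARO-KO+GCI (log2 fold change -0.063 ± 0.067). Complexins clamp the SNARE complex until calcium arrives. Cplx2 was at 2162 and 2219 CPM in FLOX+GCI and 2244 and 2202 CPM in FBN-ARO-KO+GCI, with the smallest standard error of the set (log2 fold change 0.021 ± 0.063). Cplx1, found more in inhibitory terminals, was at 769 and 829.5 CPM in FLOX+GCI and 753 and 715 CPM in FBN-ARO-KO+GCI, lower in both FBN-ARO-KO+GCI libraries (log2 fold change -0.12 ± 0.073). The correction left 0.039 for Cplx1.

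After fusion the ATPase NSF, held by α-SNAP or β-SNAP, pulls the SNARE complex apart. Nsf was at 1725 and 1641 CPM in FLOX+GCI and 1761 and 1809 CPM in FBN-ARO-KO+GCI (log2 fold change 0.085 ± 0.066). The genes of the 2 adaptors differed in opposite directions by small amounts. Napb (β-SNAP) was at 696 and 694 CPM in FLOX+GCI and 699.6 and 777 CPM in FBN-ARO-KO+GCI (log2 fold change 0.088 ± 0.076). Napa (α-SNAP) was at 343 and 357 CPM in FLOX+GCI and 331 and 339 CPM in FBN-ARO-KO+GCI (log2 fold change -0.062 ± 0.068). After the correction the values were -0.030 for Napb and 0.066 for Napa, the reverse of the order before it. Over the whole transcripts Napb has 44.2% GC and Napa 54.9%.

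Among 20 pairs of paralogs in the set, 4 had one gene higher and the other lower in FBN-ARO-KO+GCI with no overlap of the groups, namely Doc2b and Doc2a, Napb and Napa, Rab3c and Rab3a, and Ppfia2 and Ppfia3. A stretch of the last 3 pairs is shown, chosen where the 2 proteins are most alike, because there near-identical residues are encoded with different bases. Over the whole aligned proteins, identity is 83.9% for Napb and Napa, 83.6% for Rab3c and Rab3a and 63.6% for Ppfia2 and Ppfia3. The pairs were picked after their values were seen, and the Doc2 and Ppfia pairs joined the 20 after the data were examined. Over all genes tested, both FBN-ARO-KO+GCI libraries were above both FLOX+GCI libraries in 25.9% and below in 25.8%. Each stretch is 90 bases of coding sequence within 1 exon of each gene, read 5′ to 3′ on the coding strand from the NCBIM37 (mm9) build, with capitals marking bases that differ between the paralogs. For the first pair, the stretches are chr2:148523153-148523242 on the minus strand, in exon 11 of 11 of Napb, and chr7:16701813-16701902 on the plus strand, in exon 11 of 11 of Napa.
Napb: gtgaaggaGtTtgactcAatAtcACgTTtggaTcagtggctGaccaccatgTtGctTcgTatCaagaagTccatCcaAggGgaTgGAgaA
Napa: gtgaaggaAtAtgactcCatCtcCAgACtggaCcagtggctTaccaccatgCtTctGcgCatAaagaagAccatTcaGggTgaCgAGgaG
They share 27 of 30 residues and differ at 23 bases, of which 17 are at the third position of a codon. Of these 23 bases, 8 are G or C in Napb and 12 in Napa.

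Rab3 proteins are vesicle GTPases that bring vesicles to the active zone. Rab3c was at 646 and 606 CPM in FLOX+GCI and 689 and 798 CPM in FBN-ARO-KO+GCI, higher in both FBN-ARO-KO+GCI libraries and highest in replicate 2 (log2 fold change 0.25 ± 0.088, unadjusted p = 0.0251). Rab3a, the more abundant of the pair per length, was at 656 and 614 CPM in FLOX+GCI and 588 and 577 CPM in FBN-ARO-KO+GCI, lower in both (log2 fold change -0.12 ± 0.070, unadjusted p = 0.115). The correction for GC content and length left 0.060 for Rab3c and 0.035 for Rab3a. The Rab3c stretch is chr13:110971216-110971305 on the minus strand in exon 3 of 5, and the Rab3a stretch is chr8:73280346-73280435 on the plus strand in exon 2 of 4.
Rab3c: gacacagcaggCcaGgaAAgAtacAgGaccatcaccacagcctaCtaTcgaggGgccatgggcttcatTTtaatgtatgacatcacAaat
Rab3a: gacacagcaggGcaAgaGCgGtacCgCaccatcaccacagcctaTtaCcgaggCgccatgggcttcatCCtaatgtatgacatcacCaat
All 30 residues are the same in both, yet 13 bases differ, 10 of them at the third position of a codon. Of the 13, 5 are G or C in Rab3c and 11 in Rab3a, and the whole transcripts have 42.1% and 55.01% GC. Rph3a encodes rabphilin, a Rab3 effector, and was at 417 and 430.3 CPM in FLOX+GCI and 401 and 396 CPM in FBN-ARO-KO+GCI, with both FBN-ARO-KO+GCI libraries lower (log2 fold change -0.089 ± 0.067). The correction left 0.034 for Rph3a.

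Active zone scaffolds gather vesicles and calcium channels at the release site. Bsn encodes the giant scaffold Bassoon and was at 447 and 465 CPM in FLOX+GCI and 420.01 and 453 CPM in FBN-ARO-KO+GCI (log2 fold change -0.063 ± 0.073). Pclo encodes its relative Piccolo and was at 233 and 247 CPM in FLOX+GCI and 209.9 and 261 CPM in FBN-ARO-KO+GCI (log2 fold change -0.025 ± 0.11). The groups overlapped in both. Rims1, the core organizer that binds Rab3 and the priming factors, was at 108 and 111 CPM in FLOX+GCI and 112 and 123 CPM in FBN-ARO-KO+GCI (log2 fold change 0.10 ± 0.078). Its paralog Rims2 was at 56.5 and 63.6 CPM in FLOX+GCI and 53.3 and 59.2 CPM in FBN-ARO-KO+GCI, with the groups overlapping (log2 fold change -0.094 ± 0.10). Erc2 encodes CAST, a binding partner of RIM and Bassoon. It was at 277 and 269.7 CPM in FLOX+GCI and 311 and 325 CPM in FBN-ARO-KO+GCI, higher in both FBN-ARO-KO+GCI libraries (log2 fold change 0.22 ± 0.068, unadjusted p = 0.0139). The liprins-α link the scaffold to vesicle transport and adhesion molecules. Ppfia2 was at 231 and 217 CPM in FLOX+GCI and 255 and 276 CPM in FBN-ARO-KO+GCI, higher in both FBN-ARO-KO+GCI libraries (log2 fold change 0.25 ± 0.076, unadjusted p = 0.0132). Ppfia3 was at 197 and 195 CPM in FLOX+GCI and 179 and 165 CPM in FBN-ARO-KO+GCI, lower in both (log2 fold change -0.19 ± 0.074, unadjusted p = 0.0377). After the correction the log2 fold change was 0.13 for Erc2, 0.091 for Ppfia2 and 0.019 for Ppfia3. The stretches shown are chr10:106333449-106333538 on the plus strand, in exon 23 of 32 of Ppfia2, and chr7:52602138-52602227 on the minus strand, in exon 21 of 30 of Ppfia3.
Ppfia2: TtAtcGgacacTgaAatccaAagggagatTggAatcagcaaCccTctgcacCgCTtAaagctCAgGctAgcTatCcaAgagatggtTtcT
Ppfia3: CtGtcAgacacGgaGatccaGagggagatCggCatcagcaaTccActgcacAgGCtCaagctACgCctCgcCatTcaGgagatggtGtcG
Here too all 30 residues are the same, and 23 bases differ, 19 of them at the third position of a codon. Of the 23, 7 are G or C in Ppfia2 and 17 in Ppfia3, and the whole transcripts have 43.5% and 60.2% GC.

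Priming factors of the Munc13 family open syntaxin so that SNARE complexes can form. Unc13a, the main forebrain form, was nearly flat at 349 and 356 CPM in FLOX+GCI and 346 and 346 CPM in FBN-ARO-KO+GCI (log2 fold change -0.029 ± 0.066). Unc13b was at 41.5 and 42.8 CPM in FLOX+GCI and 44.8 and 42.8 CPM in FBN-ARO-KO+GCI (log2 fold change 0.054 ± 0.085). Unc13c, a form known mostly from the cerebellum, was at 33.2 and 30.4 CPM in FLOX+GCI and 18.6 and 32.7 CPM in FBN-ARO-KO+GCI, so that FBN-ARO-KO+GCI replicate 1 stood alone below the other libraries. Its log2 fold change of -0.31 ± 0.23 was 0.038 without that library. The CAPS proteins prime dense-core and synaptic vesicles. Cadps was at 379 and 372 CPM in FLOX+GCI and 396 and 415 CPM in FBN-ARO-KO+GCI (log2 fold change 0.11 ± 0.068). Cadps2 was at 132 and 128 CPM in FLOX+GCI and 148 and 165 CPM in FBN-ARO-KO+GCI. Both FBN-ARO-KO+GCI libraries were higher, with a log2 fold change of 0.27 ± 0.080 (unadjusted p = 0.0106, adjusted p = 0.244 in edgeR's test) and 0.23 after the correction.

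Of the endocytosis genes, Dnm1 encodes the dynamin that cuts vesicles off and was at 1610.2 and 1471 CPM in FLOX+GCI and 1575 and 1493 CPM in FBN-ARO-KO+GCI, with overlapping groups (log2 fold change -0.0062 ± 0.074). Amph (amphiphysin), which recruits dynamin, was at 375 and 353 CPM in FLOX+GCI and 412 and 393 CPM in FBN-ARO-KO+GCI (log2 fold change 0.15 ± 0.071). Its relative Bin1 was at 274 and 271 CPM in FLOX+GCI and 273 and 255 CPM in FBN-ARO-KO+GCI (log2 fold change -0.045 ± 0.071). After the correction, and not before it, both had an unadjusted p under 0.05, with log2 fold changes of 0.18 for Amph and 0.16 for Bin1. Synj1, the phosphatase that strips the clathrin coat, was at 618 and 573 CPM in FLOX+GCI and 639.9 and 704 CPM in FBN-ARO-KO+GCI (log2 fold change 0.17 ± 0.079). Sh3gl2 (endophilin A1), which brings synaptojanin to the neck of the vesicle, was at 445 and 432 CPM in FLOX+GCI and 438 and 478 CPM in FBN-ARO-KO+GCI (log2 fold change 0.061 ± 0.074). Neurexins are presynaptic adhesion proteins that bind neuroligins across the cleft. Nrxn2 was at 266 and 300.04 CPM in FLOX+GCI and 236 and 225 CPM in FBN-ARO-KO+GCI, lower in both FBN-ARO-KO+GCI libraries (log2 fold change -0.30 ± 0.082, unadjusted p = 0.00803, adjusted p = 0.238 in edgeR's test and 0.0414 in DESeq2). The log2 fold change of Nrxn2 was -0.066 after the correction. Nrxn3 was at 205 and 195 CPM in FLOX+GCI and 183 and 214 CPM in FBN-ARO-KO+GCI, with overlapping groups (log2 fold change -0.012 ± 0.090).

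The differences between the genotypes went with the base composition of the transcripts. For each gene the difference between the group means of log2 CPM was taken, with 0.1 CPM added. Over the 48 genes, the Spearman correlation of this difference with the GC content of the longest protein-coding transcript was -0.59. It was -0.55 over the 14004 tested genes with a transcript sequence. These points share the same 4 libraries, and genes are not independent replicates. In the 16 genes of lowest GC content (40.7 to 47.5%) 11 had a positive log2 fold change and the median was 0.13. The 16 genes of highest GC content (55.9 to 62.4%) had 1 positive and 15 negative values, with a median of -0.11. Of the 7 genes higher at an unadjusted p under 0.05, 6 had under 50% GC, and of the 6 lower ones 5 had over 55%. The exceptions were Doc2b at 55.2% and Slc17a6 at 43.3%. Against the GC content at the third position of codons, the Spearman correlation of edgeR's log2 fold change over the 48 genes was -0.35.

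**Figure D2:**
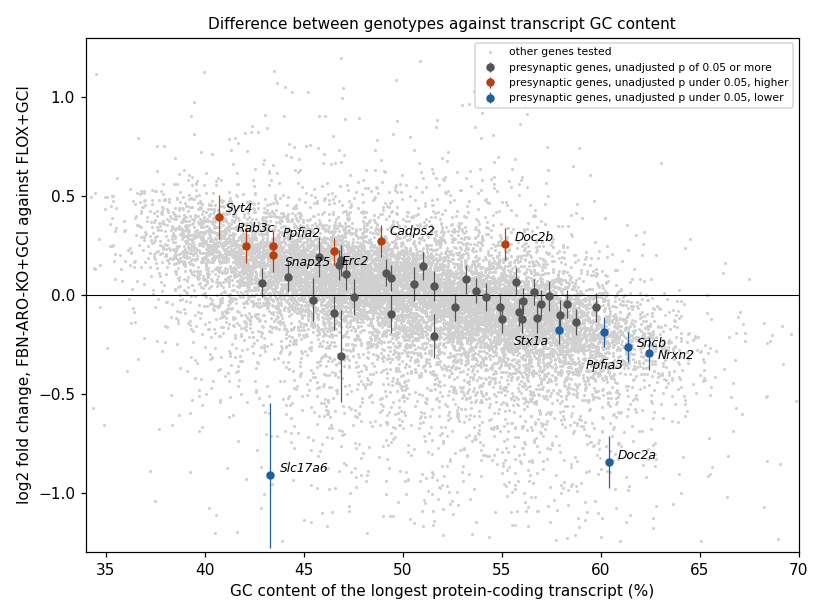
Log2 fold change of FBN-ARO-KO+GCI over FLOX+GCI (vertical axis) against the GC content in percent of the longest protein-coding transcript (horizontal axis), with standard errors as bars for the 48 presynaptic genes and gray dots for other tested genes, 98 of 13956 of which lie outside the axes. The presynaptic genes slope down from Syt4 at 40.7% to Nrxn2 at 62.4% along the cloud of other genes, and Slc17a6 and Doc2a lie below it.

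A relation of like size was present between the 2 libraries of FBN-ARO-KO+GCI, and not between those of FLOX+GCI. The log2 difference of FBN-ARO-KO+GCI replicate 2 over replicate 1 had a Spearman correlation of -0.60 with GC content over the 48 genes, and of -0.48 over all genes. For FLOX+GCI replicate 2 over replicate 1 it was 0.25 over the 48 genes and 0.10 over all genes. The trend was removed from each library with splines on GC content and length. The correlation of the genotype difference with GC content was then 0.10 over the 48 genes. Over all genes, to which the splines were fitted, it was 0.0082. For FBN-ARO-KO+GCI replicate 2 over replicate 1 it became 0.34 over the 48 genes, so a trend of the other sign remained there. The corrected median log2 fold change of the 48 genes was 0.067, against 0.029 over all genes. The difference became smaller in size in 27 of the 48 genes and took the other sign in 19. Then 7 genes (14.6%) had an unadjusted p under 0.05, against 11.4% of all genes. Higher were 5 (7.89% of all genes were), namely Syt4, Doc2b, Cadps2, Amph and Bin1, and lower were 2 (3.48% of all genes were), namely Slc17a6 and Doc2a. None passed the adjusted p. Of the genes at an unadjusted p under 0.05 before the correction, Sncb, Stx1a and Ppfia3 took the other sign. Their log2 fold changes became 0.050, 0.034 and 0.019.

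**Figure D3:**
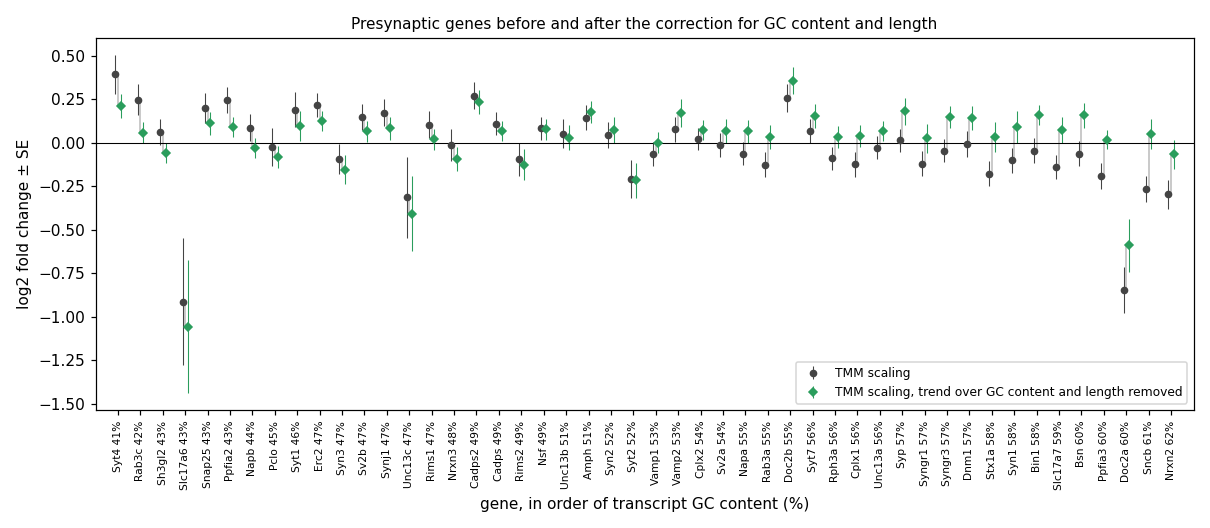
Log2 fold change with its standard error (vertical axis) of each presynaptic gene, ordered from left to right by transcript GC content in percent, with TMM scaling (black circles) and with that trend removed (green diamonds). The slope from Syt4 on the left to Nrxn2 on the right is flattened, while Doc2b is then at 0.36 and Doc2a at -0.59.

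Within families, levels were compared per length, as CPM per kb of the longest protein-coding transcript. The ratio of 2 paralogs in 1 library then does not depend on library size. This takes the longest transcript as the one expressed, 8500 bases for Rab3c and 1556 for Rab3a, which was not tested. Doc2b exceeded Doc2a 4.30-fold and 3.37-fold in FLOX+GCI and 8.77-fold and 7.64-fold in FBN-ARO-KO+GCI. This ratio was higher in both FBN-ARO-KO+GCI libraries also with GC content and length corrected, at 4.59 and 3.50 against 8.56 and 7.05. The ratio of Rab3c to Rab3a was 0.180 and 0.181 in the FLOX+GCI libraries and 0.215 and 0.253 in the FBN-ARO-KO+GCI libraries. With the correction it was 0.1995 and 0.207 against 0.211 and 0.203, and the groups overlapped. The ratio of Ppfia2 to Ppfia3 was 0.837 and 0.799 in FLOX+GCI libraries, below the 1.02 and 1.20 of FBN-ARO-KO+GCI, and the correction narrowed it to 0.950 and 0.905 against 0.992 and 0.958. The 20 pairs compared include those of Doc2, Ppfia, Nrxn and Bsn with Pclo, which were added after the data were examined. Which gene stands first in a ratio was a choice, so counts of higher and lower ratios have no direction of their own. Syt1, Syn2 and Unc13a each enter more than 1 of the 20 pairs. The ratio of the 2 paralogs was higher in both FBN-ARO-KO+GCI libraries in 9 of the 20, lower in both in 5 and overlapping in 6. After the correction these counts were 7, 7 and 6, and no share over other pairs of genes was computed. The pairs on the same side before and after were 4 of the 9 (Syt4 to Syt1, Cadps2 to Cadps, Doc2b to Doc2a and Ppfia2 to Ppfia3) and 3 of the 5 (Syt2 to Syt1, Vamp1 to Vamp2 and Rims2 to Rims1), and Napb to Napa passed from above to below.

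The order of paralogs by level was steep in several families. Slc17a6 was at 0.00992 and 0.0236 of the level of Slc17a7 in FLOX+GCI and at 0.00925 and 0.0106 in FBN-ARO-KO+GCI, so VGLUT1 transcripts dominated in every library. Vamp1 was at 0.0987 and 0.104 of Vamp2 in FLOX+GCI and at 0.0953 and 0.0888 in FBN-ARO-KO+GCI. Syn3 reached 0.0348 to 0.0428 of Syn2, and Syt2 0.00742 to 0.0107 of Syt1. By contrast Cplx1 was at 0.731 to 0.841 of Cplx2 and Syn1 at 0.675 to 0.756 of Syn2. Over all 48 genes the mean level per length ran from 1371 CPM per kb for Snap25 to 2.80 for Syt2.

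**Figure D4:**
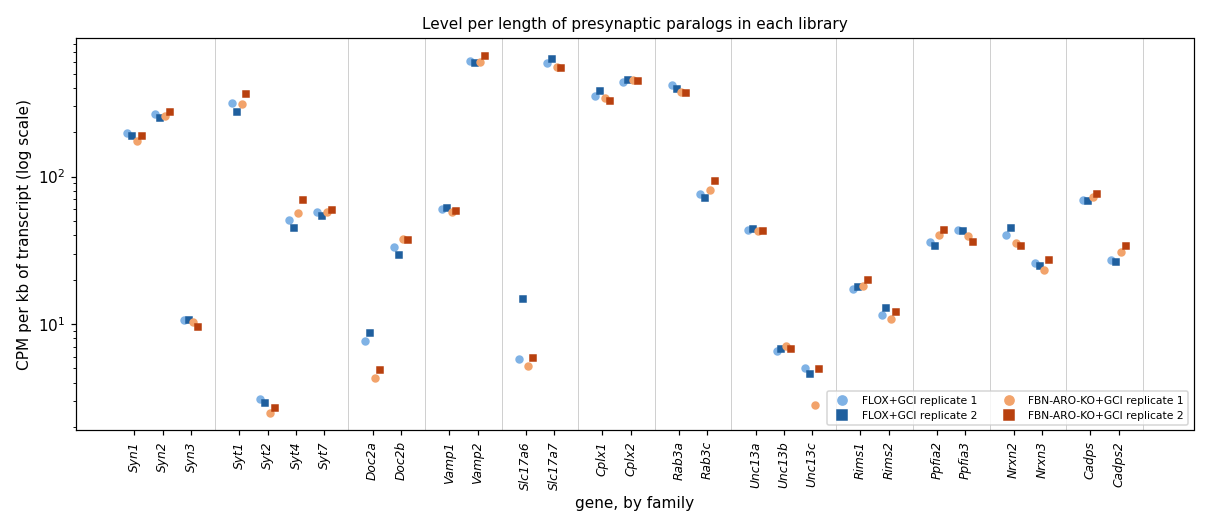
Level per length, as CPM per kb of transcript on a log axis, of presynaptic paralogs grouped by family along the horizontal axis, with 1 point per library (circles, replicate 1; squares, replicate 2; blue, FLOX+GCI; orange and brown, FBN-ARO-KO+GCI). Slc17a7, Vamp2, Syt1 and Rab3a exceed their partners in all 4 libraries, and the gap between Doc2b and Doc2a is wider in both FBN-ARO-KO+GCI libraries.

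A wider list of presynaptic genes was chosen by function, with earlier results of these data known. It left out the 48 and held 112 genes, of which 109 were tested. None passed the adjusted p of edgeR's quasi-likelihood test, where 0.0138% of all genes did, 5 passed that of its likelihood ratio test, where 2.02% of all genes did, and 8 of the 91 given one passed that of DESeq2, where 5.1% did. Of the list, 30 (27.5%) had an unadjusted p under 0.05, against 16.5% of all genes. Higher were 18 (8.72% of all genes were) and lower 12 (7.82% of all genes were). These became 13 and 3 once GC content and length were corrected for, where 7.89% and 3.48% of all genes were higher and lower, and 12 and 17 with library totals in place of TMM, where 6.63% of all genes were higher and 10.1% lower. The median log2 fold change of the list was -0.0033. The Spearman correlation of its differences in mean log2 CPM with GC content was -0.80 before the correction and -0.21 after it. The 3 genes higher with the smallest p were Eps15, Picalm and Stxbp5l. Eps15, an endocytic adaptor, was at 343 and 295 CPM in FLOX+GCI and 401 and 458 CPM in FBN-ARO-KO+GCI (log2 fold change 0.43 ± 0.10). Picalm, a clathrin assembly protein, was at 177 and 166 CPM against 207 and 221 CPM (0.32 ± 0.075). Stxbp5l, a tomosyn, was at 187 and 189.5 CPM against 219 and 250.2 CPM (0.32 ± 0.083). These 3 transcripts have 41.2 to 43.9% GC, and both FBN-ARO-KO+GCI libraries were above both FLOX+GCI libraries in each.

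The 3 genes lower with the smallest p were Cltb, Rab3b and Slc32a1. Cltb, a clathrin light chain, was at 137 and 158 CPM in FLOX+GCI and 117 and 111 CPM in FBN-ARO-KO+GCI (log2 fold change -0.37 ± 0.089). Rab3b was at 70.4 and 44.2 CPM against 34.2 and 33.6 CPM (-0.76 ± 0.19), and its log2 fold change was -0.76 after the correction too. Slc32a1, the vesicular GABA transporter, was at 83.1 and 73.6 CPM against 64.1 and 60.1 CPM (-0.33 ± 0.090), and the correction left -0.059. It is also an interneuron marker and is itself part of the sum that follows. Summed over 11 such markers, led by Gad1 and Cck, the level was 1400.04 and 1358 CPM in FLOX+GCI and 1276 and 1272 CPM in FBN-ARO-KO+GCI, lower in both FBN-ARO-KO+GCI libraries, with 5 of the 11 at a positive and 6 at a negative log2 fold change (median -0.066). After the correction the log2 fold change was -0.22 for Syt2 and 0.039 for Cplx1. The part of these cells in the values of Slc32a1, Syt2 and Cplx1 was not tested.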

How the data were processed

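RNA was extracted from the hippocampus and sequenced as 50-base single-end reads in 4 libraries, 2 for each of FLOX+GCI and FBN-ARO-KO+GCI, which were grouped by their titles. Per the labels and the submitters' processing notes, the authors used bcl2fastq, aligned to mm9 with TopHat2 2.0.8b and deposited raw counts for each gene symbol from HTSeq, with no normalization. Which annotation release and which strand setting were used is not given in the sources used here. The counters for reads assigned to no gene were left out. Of the total over genes and counters, 7.96 to 8.70% fell in no feature and 0.265 to 0.283% were ambiguous. A further 35.1 to 36.5% stood under alignments that were not unique. The counter for reads not aligned was 0 in every library, so these shares need not equal shares of all reads. Genes with near-identical copies can lose reads to alignments that are not unique.

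The main test was edgeR's quasi-likelihood test (edgeR 4.0.16 and R 4.3.3), two-sided, over every gene passing filterByExpr (minimum count 10), with TMM scaling and a Benjamini-Hochberg threshold of 0.05. As standard error was taken as the log2 fold change over the square root of F. GC content and length came from the longest protein-coding transcript of GENCODE M1 on NCBIM37, matched for 20245 of 22609 symbols and for all 48 presynaptic genes. The correction fitted natural splines with 5 degrees of freedom on GC content and log2 length to each library and entered edgeR as an offset. A prior count of 2 was added for log2 CPM. Paralog ratios have no test. The pairs of Doc2, Ppfia, Nrxn and Bsn with Pclo were added to the families after the data were examined.

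The presynaptic genes, the wider list and the marker lists were chosen with earlier results of these data known. All 48 genes are named. Values in every library are given where the unadjusted p was under 0.05 or the groups did not overlap, and for paralogs. For the wider list the 3 genes in each direction with the smallest p are named, and for each marker list given, the sum and the most abundant pair. Some sequences and marker genes are not reported here, so the interneuron, oligodendrocyte and microglial sums each leave out 1 marker. Alternatives changed the tool (DESeq2 1.42.0, edgeR's likelihood ratio test), the scaling (DESeq-style size factors, library totals), the filter (at least 1 count, or 50 counts on average) and the model (replicate block, GC and length correction, both together), or omitted single libraries. The procedure was tested on simulated counts. Precision is limited by 2 libraries per group and 24333396 to 33076795 counts per library.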

Additional observations from a re-analysis of the deposited data

How the results depend on the processing

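Of the 48 genes, 0 passed the adjusted p of edgeR's quasi-likelihood test, 1 did with its likelihood ratio test, 2 with DESeq2 and 0 to 2 with single libraries left out. Over all genes the count was 2, and it was 5 for every gene with at least 1 count, 294 with the likelihood ratio test, 292 with DESeq2 and 0 to 193 with single libraries left out, where the lone library of a group is assumed to vary like those of the other. The 13 presynaptic genes at an unadjusted p under 0.05 became 7 with the GC and length correction and 4 to 13 with single libraries left out. The wider presynaptic list went from 0 at the adjusted p to 5 with the likelihood ratio test, 8 with DESeq2 and 0 to 3 with single libraries left out, and from 30 at the unadjusted p to 16 with the correction and 12 to 38 with single libraries left out. The median log2 fold change of -0.011 was -0.048 with library totals, 0.067 with the correction and -0.027 to 0.015 with single libraries left out. Sncb, Stx1a and Ppfia3 reversed to 0.050, 0.034 and 0.019 with the correction. The cause of these shifts was not tested beyond the correction itself.

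With the replicate number as a block, adjusted calls were 184 over all genes, 1 among the 48 (Doc2a) and 1 on the wider list. The block with the correction gave 1 over all genes, 7 of the 48 and 16 of the wider list at an unadjusted p under 0.05, a median of 0.066, and 0.046, 0.031 and 0.019 for Sncb, Stx1a and Ppfia3. Same-numbered libraries deviated together with a correlation of 0.13 over genes, and nothing in the labels ties a number to a shared animal or day, so the pairing was not used. Over all alternatives for single genes, 543 values kept their direction and call, or for genes at an unadjusted p of 0.05 or more moved by less than the spread between libraries. A further 68 values of such genes moved by more, sign changes included, 7 values passed the adjusted p, and 6 were the sign changes of Sncb, Stx1a and Ppfia3 given above. Depth limited Cyp19a1 and, in DESeq2, the 4 of the 48 genes left without an adjusted p. Standard errors over the 48 were 0.063 to 0.37 (median 0.074), from 2 libraries a group.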

Other observations

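Levels of other cell types differed between libraries as follows. The 12 endothelial and mural markers, led by Vtn and Flt1, summed to 541 and 397 CPM in FLOX+GCI and 433 and 325 CPM in FBN-ARO-KO+GCI, and all 12 had a negative log2 fold change, with a median of -0.35 and none past the adjusted p of edgeR's test. Cldn5, the tight junction protein of brain endothelium, was at 42.3 and 24.7 CPM in FLOX+GCI and 31.0 and 19.0 CPM in FBN-ARO-KO+GCI, so replicate 2 was the lower library in both groups. The 12 astrocyte markers, led by Slc1a2 and Aldoc, summed to 6249 and 6333 CPM in FLOX+GCI and 6505 and 7087 CPM in FBN-ARO-KO+GCI. Over 11 oligodendrocyte markers, led by Mbp and Cnp, the sum was 3205 and 3683 CPM in FLOX+GCI and 3751 and 3679 CPM in FBN-ARO-KO+GCI, with a positive log2 fold change in 8 of the 11 and a median of 0.092. Over 11 microglial markers, led by Csf1r and Cx3cr1, it was 448 and 455 CPM in FLOX+GCI and 435 and 467 CPM in FBN-ARO-KO+GCI.

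The 12 markers of hippocampal principal neurons, led by Crym and Neurod6, summed to 1674 and 1612 CPM in FLOX+GCI and 1637 and 1654 CPM in FBN-ARO-KO+GCI. Choroid plexus markers, of which 7 of 10 were tested, were led by Enpp2 and Kl and summed to 228 and 201 CPM in FLOX+GCI and 196 and 245 CPM in FBN-ARO-KO+GCI. Of the 7 tested, 4 had a positive and 3 a negative log2 fold change, with a median of 0.094. Ttr, the most specific of them, was at 26.5 and 21.9 CPM in FLOX+GCI and 8.93 and 15.6 CPM in FBN-ARO-KO+GCI. In the principal neuron and choroid plexus sums the 2 groups overlapped. The part of these cells in the presynaptic differences was not tested.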
